A study of Mus musculus with 5 samples.

Results

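The genes described here are 31 neuronal and synaptic genes of the mouse that are known as targets of the transcriptional repressor REST, followed in neural tubes of embryos with and without the erythropoietin receptor. They were chosen by symbol from a fixed list, which is 31 of the 23284 genes in the count tables, and 27 of them had enough reads to be tested. Neural tubes, the tissue that forms the brain and spinal cord, came from 5 embryos labelled as embryonic day 8.5, and their polyA RNA was sequenced. The age in the paper is slightly later than that label. The embryos were 2 EpoR-null (genotype EpoR -/-), 2 wild type and 1 heterozygote (genotype EpoR +/-), and the last 3 serve as controls. All were offspring of EpoR+/- mice, so the deletion was carried in every cell of the null embryos and not in the nervous system alone. Each library is 1 embryo of its genotype, and p-values of the genotype groups rest on the spread between these 5 embryos. Those of a single null embryo, or of the null embryos against each other, rest on the spread between the 3 controls.

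REST is a zinc finger protein that binds a DNA element called RE1 (repressor element 1) and recruits corepressors, among them RCOR1, SIN3A and histone deacetylases, which keep neuronal genes silent outside neurons. Neural progenitors hold REST, and it declines as they become neurons, when its target genes come on. The targets followed here encode proteins of the synaptic vesicle and its release machinery, proteins of dense-core granules, parts of the neuronal cytoskeleton, cell surface proteins, neurotransmitter receptors, and trophic or scaffold proteins.

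The RE1 sequences of the members are shown because they are the element by which REST reaches a gene. The element was searched as its left part TCAGCACC and, 2 bases later, its right part GGACAG, on both strands, with at most 2 mismatches among the 14 letters, in RefSeq promoter windows of GRCm38.p6 that run from 250 bases before to 50 bases after the start of a gene. A window was given for 22 of the 31 members. Syt4, Snap25, Stmn2, Vgf, Nefl, Nefm, Vamp2, Disp2 and Rundc3a had none and were not searched. Of the 22 members, 3 (13.6%) held a match, each with 1 mismatch. Over all genes a match was held by 161 of 27025 (0.596%) at up to 2 mismatches and 28 of 27025 (0.104%) at up to 1. In the sequences below the letters of the 2 parts are in capitals, read 5′ to 3′ on the strand of the match.
Celsr3: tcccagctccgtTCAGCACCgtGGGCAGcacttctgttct
Gria2: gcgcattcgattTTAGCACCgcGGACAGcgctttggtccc
Syn1: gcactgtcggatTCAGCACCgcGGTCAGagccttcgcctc
The Celsr3 match lies at chr9:108825919-108825934 on the plus strand, which is the strand of the gene, from base -126 to base -111 relative to the start. The match of Gria2 lies at chr3:80802990-80803005, on the plus strand and so opposite to the gene, from base -170 to base -155. That of Syn1 lies at chrX:20921134-20921149 on the minus strand, the strand of the gene, from base -231 to base -216. A match is a description of the letters in this window, and RE1 elements further from the start, or inside a gene, lie outside the search.

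Reads on genes numbered 19316126 to 41169218 per library, so that 3 reads equal 0.0729 to 0.155 CPM (reads scaled to library size) before TMM factors. The CPM of genes given below include TMM factors. Epor was at 2.35 and 1.62 CPM in wild type, 0.476 in the heterozygote, and 0.354 and 0.669 CPM in the null embryos, from 7 to 68 reads. It was lower in the null embryos by a log2 fold change of -1.51 ± 0.76 (SE), which did not pass edgeR's exact test (adjusted p = 0.280), and the heterozygote lay within the range of the nulls, so that the genotypes rest on the labels. Neural progenitor markers were present in every library, with Sox2 at 220 to 309 CPM. The heterozygote library stood apart in markers of other tissues. Its summed CPM was 44.2 for 7 erythroid markers tested, against 603 to 1693 in the other libraries, 11.4 against 113 to 268 for 6 endothelial markers, 7.39 against 29.5 to 77.6 for 5 somite markers, and 44.2 against 110 to 177 for 6 neural crest markers. Hba-a1 and Hba-a2 had 0 counted reads in all 5, which does not settle whether they were expressed. Xist, the RNA of the inactive X chromosome, was at 671 CPM in the heterozygote, 219 in EpoR-null replicate 2 and at most 0.331 in the other 3, and 3 members (Syp, Syn1 and L1cam) are X-linked. The part of these differences in the results below was not tested. Results without the heterozygote are given for the calls of members and some other counts. They are not given for single null embryos outside the range of the controls, the direct contrast of the null embryos, or the other gene lists.

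REST itself was lower in both null embryos. Rest, on chromosome 5 (77265491 to 77286432, plus strand, GRCm38), was at 29.2 and 25.9 CPM in wild type, 26.7 in the heterozygote, and 11.0 and 7.39 CPM in EpoR-null replicates 1 and 2. Both null values lay below all controls, at 40.4% and 27.1% of the control mean. The log2 fold change was -1.57 ± 0.26 (SE; edgeR's exact test, adjusted p = 4.26e-06), and the quasi-likelihood F-test of edgeR gave an adjusted p of 0.0590.

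No member passed the test of the genotype groups. Of the 27 tested, 0 were called lower and 0 higher in the 2 EpoR-null embryos against the 3 controls (edgeR's exact test, p < 0.001 and FDR < 0.05), where 3.84% of 12703 genes were called lower and 0.929% higher. Without the heterozygote the members' counts were also 0 and 0. At an unadjusted p under 0.05 the exact test had 1 member (Stmn3), DESeq2 1 and the quasi-likelihood F-test 0, and the lowest adjusted p of a member in the exact test was 0.239. The median log2 fold change of the members was 0.53, with 24 of 27 above 0. That of all genes tested was 0.06, with 7134 of 12703 above 0. The members' median rested on 1 embryo, as it was -0.65 without EpoR-null replicate 1 and 1.19 without replicate 2. Standard errors of the members ran from 0.25 to 1.0 with a median of 0.56, so that the fold change of each member was smaller than 2 of its standard errors. Both null values lay below all controls for 0 members, where 22.1% of all genes did so. They lay above all controls for 1 member, Cplx1, where 21.2% did so. Without the heterozygote the latter count was 3 members. Fewer controls are easier to exceed, and the share of all genes without the heterozygote is not given.

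The null embryos lay on opposite sides of the controls for most members. EpoR-null replicate 1 was above all 3 controls for 26 of 27 members (96.3%, against 39.1% of all genes), with Bdnf the exception, and EpoR-null replicate 2 was below all controls for 20 of 27 (74.1%, against 39.4%). Both held for 19 members (70.4%, against 9.73% of all genes). The summed CPM of the tested members was 500 and 402 in wild type, 587 in the heterozygote, 1121 in EpoR-null replicate 1 and 311 in replicate 2. Markers of other tissues moved in part with this. EpoR-null replicate 1 also had the highest summed CPM for erythroid (1693), somite (77.6) and neural crest (177) markers, and lay above all controls for 6 of 7, 5 of 5 and 4 of 6 of them. Their median log2 over the control mean was 1.0, 1.18 and 0.85 in replicate 1, and 0.53, 0.15 and 0.09 in replicate 2. The endothelial sum was 221 in replicate 1 and 113 in replicate 2, against 268 in wild type replicate 2. Replicate 1 lay above all controls for 1 of these 6 markers. The 2 surface ectoderm markers went the other way, with a sum of 13.1 in replicate 1 and 28.4 in replicate 2. The part of other tissues in the member values was not tested. In bulk tissue, fewer cells of a type and less RNA per cell cannot be told apart.

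**Figure D1:**
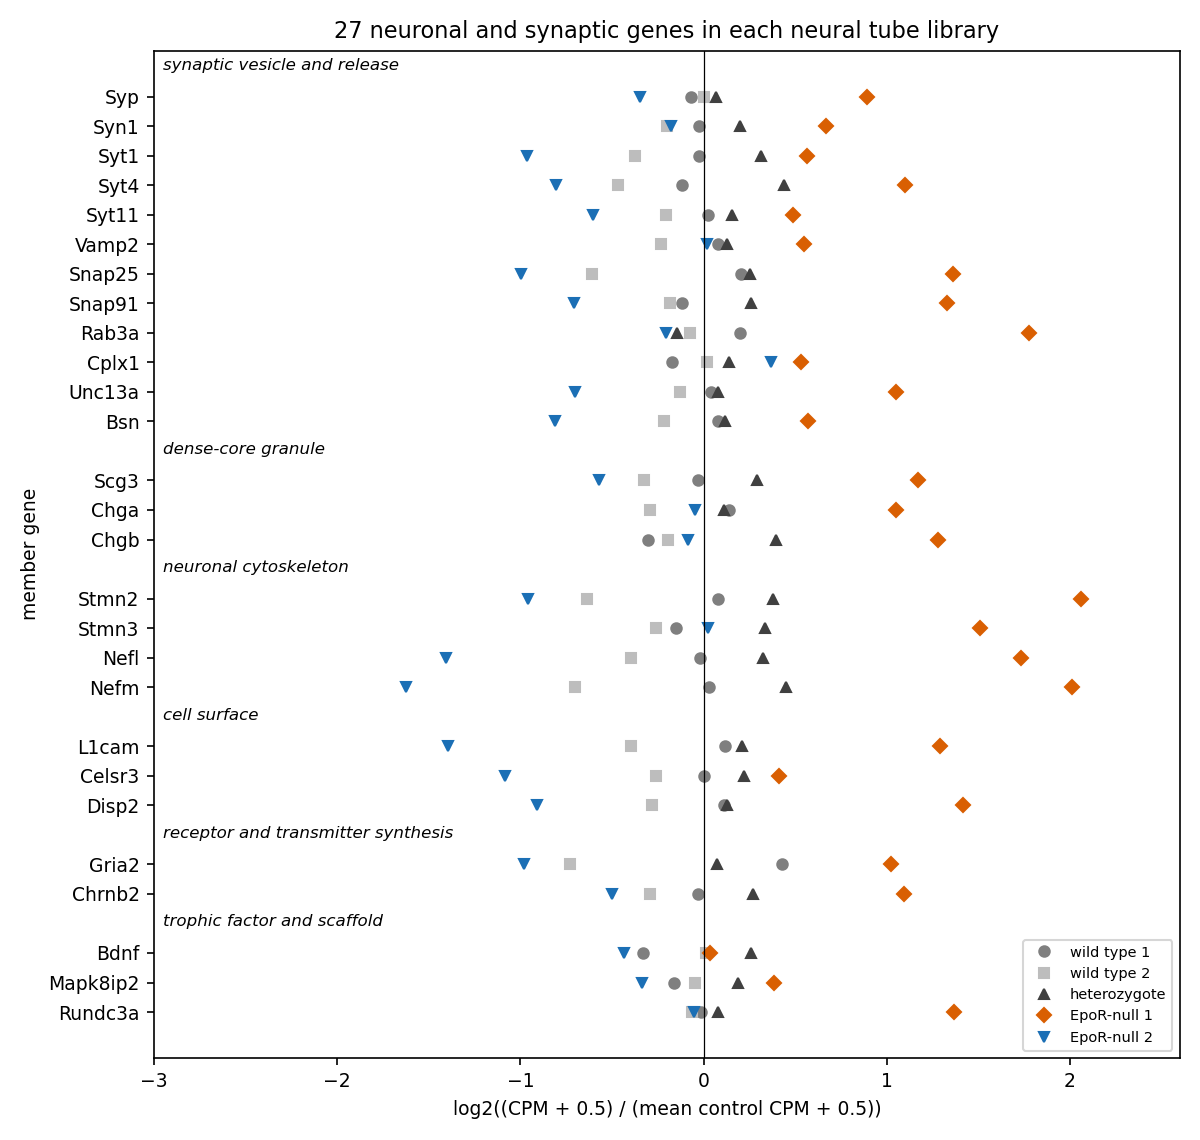
Each row is 1 of the 27 members tested, grouped by role, and each point 1 library, placed by log2 of its CPM over the control mean with 0.5 CPM added to both. EpoR-null replicate 1 (orange diamonds) is the rightmost point in every row but Bdnf, and EpoR-null replicate 2 (blue triangles) the leftmost in 20 of the 27 rows.

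Because the group test averages embryos that differ, each null embryo was also set alone against the 3 controls, a contrast added after the data were seen. The lone embryo is assumed there to vary as the controls do, and the test compares that embryo, not the genotype, with them. In EpoR-null replicate 1, 11 of 27 members (40.7%) were called higher and 0 lower, where 2.66% of 12634 genes were called higher and 5.1% lower. In EpoR-null replicate 2, 4 of 27 (14.8%) were called lower and 0 higher, where 10.2% of 12576 genes were called lower and 8.06% higher. At an FDR of 0.05 alone both counts were larger. Nefl, Nefm and L1cam were called in both, in opposite directions. The counts depended on the controls used, and were smaller without wild type replicate 1 and larger without the heterozygote. The share of all genes at these other settings is not given, so whether the members moved with all genes cannot be read.

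The neuronal cytoskeleton genes had the widest median differences of the 6 roles, although Stmn3 differed less between the null embryos (2.87-fold) than the median member. Neurofilament light and medium chains, encoded by Nefl and Nefm, fill the axons of neurons. Nefm was at 57.2 and 34.2 CPM in wild type, 76.5 in the heterozygote, 227 in EpoR-null replicate 1 and 17.8 in replicate 2. Nefl was at 32.8 and 25.1 CPM in wild type, 41.7 in the heterozygote, and 111 and 12.2 in the null embryos. For both genes replicate 1 was far above the controls and replicate 2 below them. Against the controls Nefm had a log2 fold change of 2.02 ± 0.43 in replicate 1 (adjusted p = 1.58e-05) and -1.65 ± 0.44 in replicate 2 (adjusted p = 0.00494). For Nefl these were 1.75 ± 0.29 (adjusted p = 3.26e-08) and -1.44 ± 0.32 (adjusted p = 0.000400). The genes lie on opposite strands of chromosome 14 in GRCm38, Nefl from 68083863 to 68089095 and Nefm from 68082590 to 68124846, and overlap in the annotation. Whether reads were counted by strand is not given in the sources used here, so their reads may not be fully separate.

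Stathmins bind tubulin and destabilize microtubules in growing neurites. Stmn2 was at 33.4 and 20.2 CPM in wild type, 41.3 in the heterozygote, and 133 and 16.1 CPM in EpoR-null replicates 1 and 2. Its log2 fold change was 2.08 ± 0.39 in replicate 1 (adjusted p = 9.70e-07) and -0.97 ± 0.41 in replicate 2 (adjusted p = 0.0878), so only the first passed. Stmn3 was at 12.6 and 11.7 CPM in wild type, 17.9 in the heterozygote, 41.0 in replicate 1 and 14.3 in replicate 2. Here replicate 2 lay among the controls, and replicate 1 was higher by 1.54 ± 0.33 (adjusted p = 2.57e-05). The 4 genes had a median log2 over the control mean of 1.87 in replicate 1 and -1.18 in replicate 2.

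**Figure D2:**
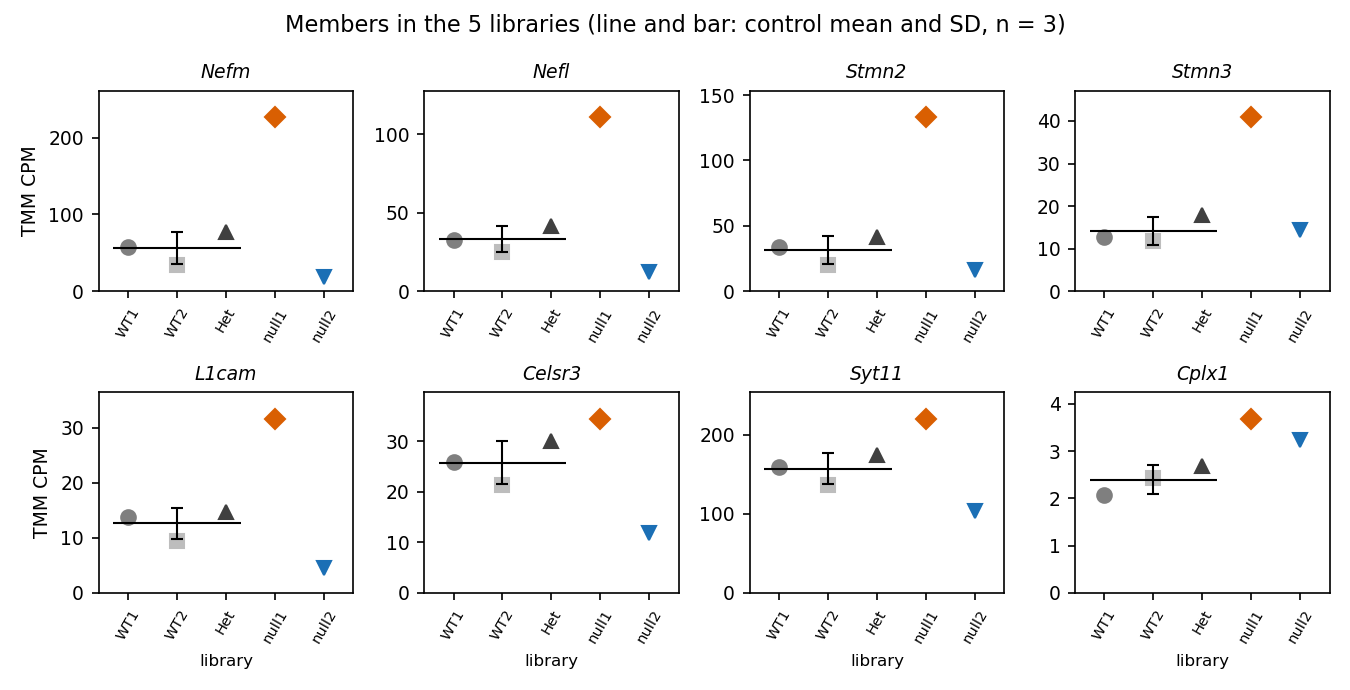
CPM of 8 members in each library (WT1 and WT2 wild type, Het heterozygote, null1 and null2 EpoR-null replicates 1 and 2), with the control mean as a line and its SD as a bar (n = 3). Nefm, Nefl, Stmn2, L1cam, Celsr3 and Syt11 place the null embryos on either side of the controls, Stmn3 has replicate 2 among the controls, and Cplx1 has both above.

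The 3 cell surface members also had the null embryos on either side of the controls. L1cam encodes an adhesion molecule of growing axons and was at 13.8 and 9.51 CPM in wild type, 14.7 in the heterozygote, 31.7 in EpoR-null replicate 1 and 4.51 in replicate 2. The difference from the controls was 1.33 ± 0.34 in replicate 1 (adjusted p = 0.000977) and -1.49 ± 0.40 in replicate 2 (adjusted p = 0.00459). Celsr3, an atypical cadherin needed for axon guidance and 1 of the members with an RE1 match, was at 25.8 and 21.4 CPM in wild type, 30.0 in the heterozygote, 34.4 in replicate 1 and 11.9 in replicate 2. Replicate 2 was the one that passed for Celsr3, at -1.11 ± 0.27 (adjusted p = 0.000957), while replicate 1 was at 0.42 ± 0.26 (adjusted p = 0.298). Disp2, a membrane protein of the Dispatched family, was at 5.16 and 3.81 CPM in wild type, 5.23 in the heterozygote, 13.5 in replicate 1 and 2.29 in replicate 2. It was called higher in replicate 1 (1.51 ± 0.39, adjusted p = 0.000887) and was below all controls in replicate 2 without passing (adjusted p = 0.0820).

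Among the 12 genes of the synaptic vesicle and its release, EpoR-null replicate 1 was above all controls for 12 and replicate 2 below for 9, and the differences were smaller, with medians of 0.78 and -0.65 on the log2 scale. Syp encodes synaptophysin, a protein of the vesicle membrane, and was at 10.2 and 10.8 CPM in wild type, 11.3 in the heterozygote, 20.5 in replicate 1 and 8.38 in replicate 2. Rab3a encodes the small GTPase of the vesicle and was at 2.44 and 1.93 CPM in wild type, 1.82 in the heterozygote, 8.28 in replicate 1 and 1.73 in replicate 2. Snap91, which helps assemble the clathrin coat in vesicle recycling, was at 2.85 and 2.69 CPM in wild type, 3.85 in the heterozygote, 8.64 in replicate 1 and 1.73 in replicate 2. These were the 3 release genes called higher in replicate 1, Syp by 0.92 ± 0.28 (adjusted p = 0.00778), Rab3a by 2.01 ± 0.42 (adjusted p = 2.00e-05) and Snap91 by 1.47 ± 0.43 (adjusted p = 0.00441).

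Snap25 and Vamp2 encode SNARE proteins, which fuse the vesicle with the cell membrane. Snap25 was at 6.24 and 3.34 CPM in wild type, 6.48 in the heterozygote, 14.5 in replicate 1 and 2.43 in replicate 2. Vamp2 was at 33.0 and 26.5 CPM in wild type, 34.1 in the heterozygote, 45.8 in replicate 1 and 31.6 in replicate 2, the last within the controls. Cplx1, encoding complexin, which clamps the SNARE complex, was at 2.07 and 2.43 CPM in wild type, 2.68 in the heterozygote, 3.69 in replicate 1 and 3.24 in replicate 2. Its null embryos were the closest to each other among the 27 members tested, and its log2 fold change as a group was 0.53 ± 0.36 (adjusted p = 0.424).

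Synaptotagmins are membrane proteins of vesicles, and Syt1 is the calcium sensor of fast release. Syt1 was at 2.35 and 1.74 CPM in wild type, 3.11 in the heterozygote, 3.79 in replicate 1 and 0.986 in replicate 2. Syt4 was at 2.69 and 2.0 CPM in wild type, 4.19 in the heterozygote, 6.92 in replicate 1 and 1.48 in replicate 2. Syt11 was at 159 and 136 CPM in wild type, 175 in the heterozygote, 221 in replicate 1 and 103 in replicate 2. Per kilobase of its longest annotated transcript Syt11 was the most abundant member, at 31.3 CPM per kb in the controls, and its differences of 0.49 ± 0.17 in replicate 1 (adjusted p = 0.0312) and -0.60 ± 0.18 in replicate 2 (adjusted p = 0.00586) were under an FDR of 0.05 but missed the other threshold of edgeR's exact test, with p = 0.00335 and 0.00109. The median over the 27 members was 1.86 CPM per kb.

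Unc13a and Bsn encode proteins of the active zone, where vesicles are primed and held. Unc13a was at 2.93 and 2.55 CPM in wild type, 3.03 in the heterozygote, 6.41 in replicate 1 and 1.55 in replicate 2. Bsn was at 8.76 and 7.05 CPM in wild type, 9.04 in the heterozygote, 12.5 in replicate 1 and 4.51 in replicate 2. The null embryos lay on either side of the controls for both, and neither was called when set alone, although Unc13a in replicate 1 had an adjusted p of 0.0194 by edgeR's exact test and missed only the threshold on p, as did Snap25 (adjusted p = 0.0244). Syn1, which tethers vesicles and has an RE1 match, was at 5.22 to 7.05 CPM in the controls, 9.95 in replicate 1 and 5.32 in replicate 2.

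Of the dense-core granule genes, whose proteins package and sort secreted peptides, 3 were tested. Scg3 was at 22.8 and 18.5 CPM in wild type, 28.6 in the heterozygote, 53.1 in EpoR-null replicate 1 and 15.5 in replicate 2, and it was called higher in replicate 1 by 1.19 ± 0.29 (adjusted p = 0.000416). The chromogranin genes Chga and Chgb were at 5.34 to 7.35 and 3.14 to 5.40 CPM in the controls, 14.3 and 10.4 in replicate 1, and 6.41 and 3.73 in replicate 2. For these chromogranins replicate 2 lay within the controls, and replicate 1 had adjusted p-values of 0.0202 and 0.0215 by edgeR's exact test without passing the threshold on p. Over the 3 granule genes the group median was 1.17 in replicate 1 and -0.09 in replicate 2 on the log2 scale.

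Of the genes for receptors and transmitter synthesis 2 were tested. Chrnb2, encoding a nicotinic acetylcholine receptor subunit, was at 6.82 and 5.60 CPM in wild type, 8.52 in the heterozygote, 15.5 in replicate 1 and 4.79 in replicate 2. Gria2, encoding an AMPA glutamate receptor subunit and holding an RE1 match, was at 1.57 and 0.429 CPM in wild type, 1.12 in the heterozygote, 2.63 in replicate 1 and 0.282 in replicate 2, from 8 to 52 reads. Per kilobase of transcript it was the least abundant of the members tested, at 0.100 CPM per kb in the controls. Both placed the null embryos on either side of the controls, without a call, although in replicate 1 Chrnb2 had an adjusted p of 0.0203 (edgeR's exact test, p = 0.00186) and missed only the threshold on p. Of the last 3 members, Rundc3a, which encodes a protein expressed mainly in neurons, was at 11.8 and 11.4 CPM in wild type, 12.6 in the heterozygote, 31.6 in replicate 1 and 11.5 in replicate 2. It was called higher in replicate 1 by 1.40 ± 0.25 (adjusted p = 2.58e-07), and replicate 2 lay within the controls. Mapk8ip2, a scaffold of the JNK pathway, was at 25.7 and 28.0 CPM in wild type, 33.0 in the heterozygote, 37.9 in replicate 1 and 22.7 in replicate 2. Bdnf, a neurotrophic factor, was at 0.868 to 1.56 CPM in the controls, 1.26 in replicate 1 and 0.775 in replicate 2.

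Scg2, Vgf, Grin1 and Gad1 did not pass the filter on low counts and were not tested, with 1 to 45 reads in each library. Scg2, a granule protein, had 6 to 12 reads in the controls, 45 in EpoR-null replicate 1 and 5 in replicate 2. Gad1, the enzyme that makes the transmitter GABA, had 1 to 5 reads in the controls, 23 in replicate 1 and 7 in replicate 2. Vgf, which encodes a secreted neuropeptide precursor, had 2 to 12 reads and Grin1, which encodes an NMDA receptor subunit, 1 to 11 over the 5 libraries.

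Set directly against each other, the null embryos differed in 15 of the 27 members (55.6%), all of them higher in replicate 1 and 0 lower, where 4.35% of 12703 genes were called higher and 4.06% lower (edgeR's exact test with the spread taken from the controls). The fold between the embryos ran from 1.14 for Cplx1 to 12.8 for Nefm with a median of 3.23, and a log2 difference above 1 was found in 22 of 27 members (81.5%) against 6.92% of all genes. All 27 were on the same side of 0, higher in replicate 1, where 49.2% of all genes were lower in it. Relative to the control mean the median fold was 2.28 in replicate 1, with 17 members above 2, and 0.635 in replicate 2, with 9 members below 0.5. Shares of all genes beyond these folds are not given.

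The controls also differed among themselves, in a like order and by less. The heterozygote was the highest control for 24 of 27 members and wild type replicate 2 the lowest for 21. The share of all genes is not given for these counts, so they cannot be read as particular to the members. From high to low, 15 members (55.6%) had the order EpoR-null replicate 1, heterozygote, wild type replicate 1, wild type replicate 2, EpoR-null replicate 2. This order held for 3.95% of all genes. The median log2 over the control mean was 0.21 in the heterozygote, -0.02 in wild type replicate 1 and -0.26 in wild type replicate 2, against 1.09 and -0.60 in the null embryos. Across the 27 members, the difference between the wild type embryos and that between the null embryos had a Pearson r of 0.668 and a Spearman rho of 0.697. With the heterozygote minus wild type replicate 2 in place of the former, these were 0.675 and 0.663. With the heterozygote minus wild type replicate 1 they were -0.066 and -0.073. These values are a description only, since the members come from the same libraries and are not independent.

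Genes of newborn neurons that are not members mostly lay in a like arrangement. In a list of 17 (among them Tubb3, Dcx, Elavl3, Neurod1 and Isl1), 13 had replicate 1 above and replicate 2 below all controls, against 9.73% of all genes. The exceptions were Neurog2, Neurod4, Pou4f1 and Onecut1. Onecut1 was below all controls in both null embryos, at 2.68 and 0.458 CPM against 3.60 to 4.84. Neurog2 lay within the controls in both, at 52.1 and 50.2 CPM. By edgeR's exact test 0 were called in either direction as a group, 10 were called higher in EpoR-null replicate 1 alone and 7 lower in replicate 2 alone. Shares of all genes called in each null embryo alone are given further above, and differed between the embryos. The median log2 over the control mean was 1.29 in replicate 1 and -1.17 in replicate 2. Dcx, Nhlh2 and Ina were called in both embryos. Dcx, a microtubule protein of migrating neurons, was at 34.0 and 14.7 CPM in wild type, 40.9 in the heterozygote, 101 in replicate 1 and 4.33 in replicate 2. The summed CPM of the list was 713 and 514 in wild type, 822 in the heterozygote, 1531 in replicate 1 and 356 in replicate 2, and thus followed the order of the summed members. How far the amount of neurons in each dissected tube bears on the member values was not tested.

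**Figure D3:**
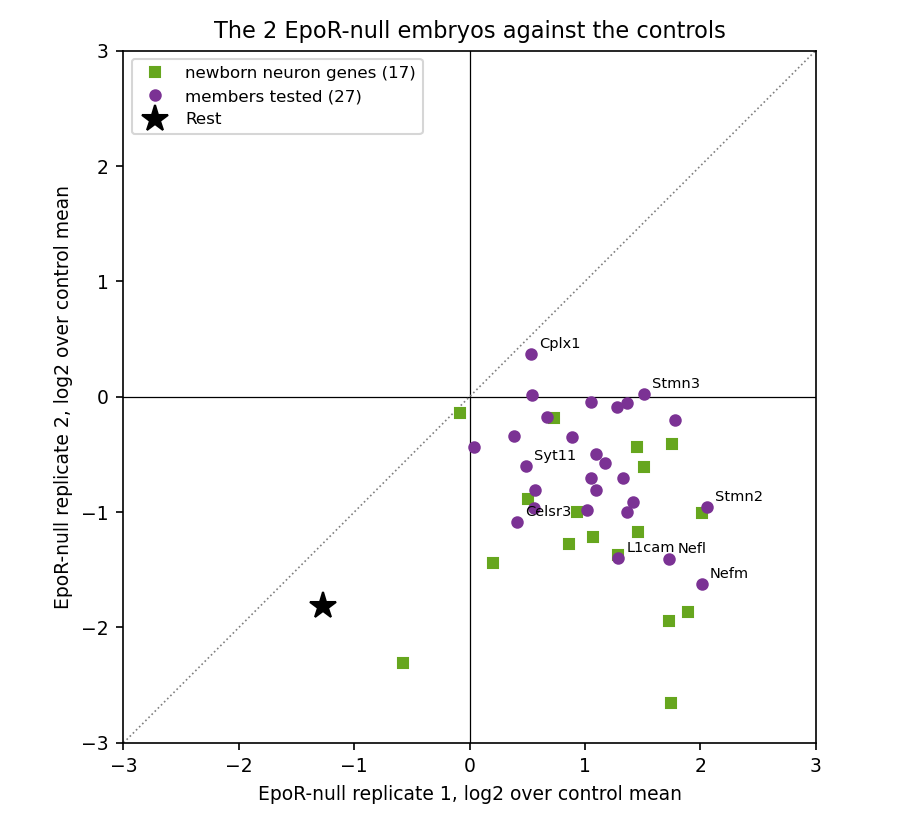
Each point is 1 gene, with its log2 over the control mean in EpoR-null replicate 1 on the x axis and in replicate 2 on the y axis (0.5 CPM added), and the dotted line marks equal values. Members (purple) and newborn neuron genes (green) lie mostly at the lower right, high in replicate 1 and low in replicate 2, while Rest (star) is low in both.

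Progenitor genes depended on the list. Of 9 neural progenitor genes, 1 (Nes) had replicate 1 above and replicate 2 below all controls. The median of the 9 was -0.05 in replicate 1 and -0.06 in replicate 2 on the log2 scale, whereas in the 7 of the marker list, which lacks Vim and Fabp7, it was -0.35 and 0.08. Set alone, replicate 1 had 2 called higher (Vim and Fabp7) and 2 lower (Sox1 and Msi1), and replicate 2 had 1 lower (Nes). In the group test 1 was called lower. That was Msi1, an RNA-binding protein of progenitors, at 240 and 264 CPM in wild type, 256 in the heterozygote, and 174 and 181 CPM in the null embryos (log2 fold change -0.51 ± 0.14, adjusted p = 0.00712, and 0.0662 with the quasi-likelihood F-test).

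Of 20 genes for REST, its corepressors and its regulators, 2 were called lower and 0 higher, Rest and Rcor1. Rcor1, which encodes the corepressor CoREST, was at 40.4 and 34.6 CPM in wild type, 35.6 in the heterozygote, 23.0 in replicate 1 and 12.3 in replicate 2. Both null values lay below the controls, and the log2 fold change was -1.06 ± 0.31 (edgeR's exact test, adjusted p = 0.0200). The call was lost with the quasi-likelihood F-test (adjusted p = 0.112) and with length and GC offsets (adjusted p = 0.0748). The list's median was -0.18 in replicate 1 and -0.21 in replicate 2. Of 8 tested genes that are known REST targets but not members, 6 had replicate 1 above and replicate 2 below all controls, with medians of 0.34 and -0.50 on the log2 scale. Among them 0 were called in the group test, 1 was called higher in replicate 1 alone (Slc18a3) and 2 lower in replicate 2 alone (Glra1 and Srrm4). Rest was at 11.0 CPM in the embryo with the highest member levels and at 7.39 CPM in the embryo with the lowest. This is a log2 difference of 0.57 between single libraries, which was not called in the direct contrast of the null embryos. Its relation to the member levels was not tested.

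**Figure D4:**
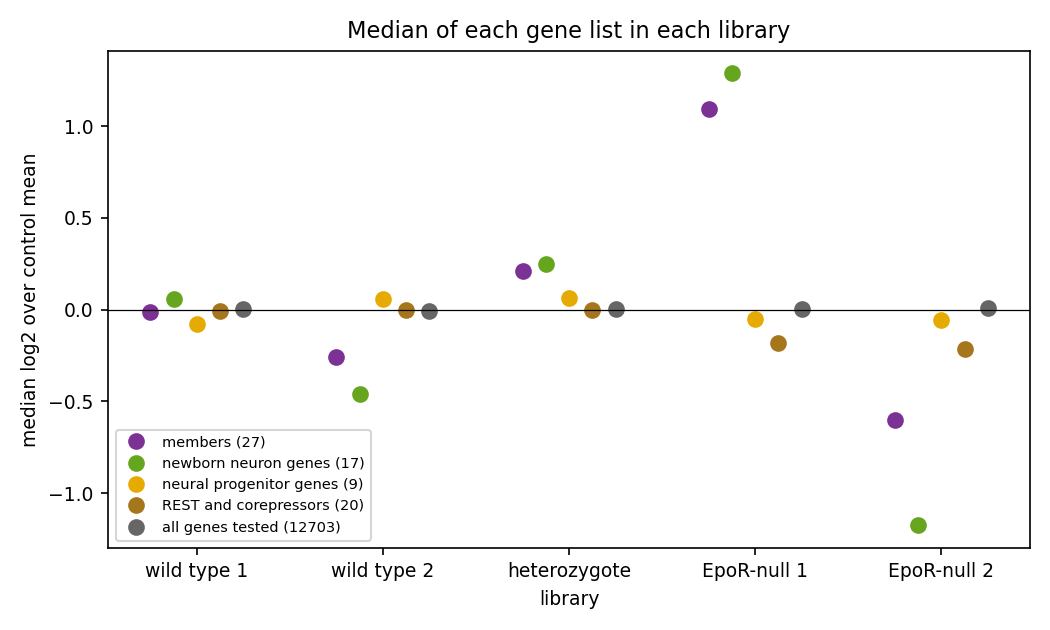
Median over the genes of each list of log2 over the control mean (0.5 CPM added), for each library, with the number of genes tested in parentheses. The members and the newborn neuron genes are highest in EpoR-null replicate 1 and lowest in replicate 2, while the 9 progenitor genes, REST with its corepressors and all genes tested lie between -0.21 and 0.06.

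Transcript length moved with the null libraries across all genes. With genes split by length into 3 groups of near equal size, in the shortest (up to 2724 bases) the median log2 over the control mean was 0.15 in replicate 1 and 0.36 in replicate 2, and in the longest (4385 bases or more) -0.18 and -0.41. The 7 members in the shortest group had medians of 1.17 and -0.05, the 8 in the middle group 1.19 and -0.62, and the 12 in the longest 1.04 and -0.86. Offsets that remove each library's trend on length and GC content were also used in edgeR's likelihood-ratio test. With them more members were called higher in replicate 1 alone and fewer lower in replicate 2 alone. The share of all genes with these offsets is not given for single embryos.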

How the data were processed

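PolyA RNA of 5 neural tubes was sequenced. The authors deposited 1 table of raw read counts per gene for each library, without normalization. The submitters' processing notes list FastQC, Trimmomatic 0.32, TopHat2 2.1.0, HTSeq 0.6.1 and edgeR, with genome build mm9, whereas the paper's methods name hg19. The annotation and strand setting are not given in the sources used here. HTSeq leaves out reads that overlap more than 1 gene, here 1.845 to 2.305% of reads, and 8.115 to 11.03% fell on no gene. Neither entered library sizes. Reads on genes ranged from 19316126 to 41169218, and all pairs of libraries differed by more than sampling noise. The heterozygote of the labels was counted as a control, as in the study.

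The tests used edgeR 4.0.16 under R 4.3.3. Genes above 1 CPM in 2 or more libraries (12703 of 23284) were tested with TMM scaling, tagwise dispersions and the exact test, EpoR-null against controls, with Benjamini-Hochberg adjustment over all genes tested. Calls of the exact test needed p < 0.001 and FDR < 0.05, the thresholds of the study. Errors after ± are standard errors of edgeR's log2 fold changes. Log2 values over the control mean had 0.5 CPM added. For single embryos and for the contrast of the null embryos, dispersions came from the controls. Values of every library were printed for members that were called, had both null values outside the controls or had a mean of at least 10 CPM. DESeq2 1.42.0, the quasi-likelihood F-test and other settings were alternatives. Gene positions are those of GENCODE M21 (GRCm38), matched by symbol, and promoter windows those of RefSeq. The members and lists were chosen with earlier results of these data known.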

Additional observations from a re-analysis of the deposited data

How the results depend on the processing

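No member was called in the group comparison by the quasi-likelihood F-test, DESeq2, RLE factors, total counts, no filter, FDR alone or the likelihood-ratio test with or without offsets, whereas leaving out 1 library gave 0 to 4 members lower and 0 to 11 higher, the upper values being those without EpoR-null replicate 1 and without replicate 2. The members' median log2 fold change ran from -0.65 without EpoR-null replicate 1 to 1.19 without replicate 2, and members with all null values above the controls numbered 1 to 26, and below them 0 to 20, in the same fits. Without EpoR-null replicate 1 the fold change of 21 of 27 members changed sign (3 without replicate 2, 2 without wild type replicate 2 or with offsets, 1 without wild type replicate 1 or the heterozygote). Nefl, Nefm and L1cam changed sign and passed the thresholds, and with 1 library left out they ran from -1.44 to 1.75, from -1.65 to 2.02 and from -1.49 to 1.33. Over all genes, 488 lower and 118 higher became 0 and 0 with the quasi-likelihood F-test, 753 and 275 with DESeq2, 163 lower with length and GC offsets, 64 higher without the filter and 230 higher at FDR alone, and total counts gave 506 and 79. Leaving out 1 library gave 111 to 1283 lower and 4 to 1013 higher, with 111 and 4 without wild type replicate 1, 282 and 12 without wild type replicate 2, 239 and 14 without the heterozygote, 1283 and 1013 without EpoR-null replicate 1, and 644 and 336 without EpoR-null replicate 2. Rest stayed lower in every fit, from -1.88 to -1.31 with 1 library left out, at -1.57 but past no threshold with the quasi-likelihood F-test (adjusted p = 0.0590), and at -1.19 with offsets. For the null embryos alone, 11 members higher in replicate 1 became 17 with offsets and 6 to 19 with a control left out (6 without wild type replicate 1, 19 without the heterozygote), and 4 lower in replicate 2 became 1 with offsets and 1 to 6 with a control left out (1 without wild type replicate 1). No share of all genes is given beside the single-embryo counts with offsets or with a control left out. The causes were not tested. The labels number the wild type and null embryos 1 and 2 without saying that a number marks a litter or a day, and with 2 pairs this cannot be settled. The wild type and null differences between numbers had a Pearson r of 0.468 across genes, which are not independent replicates. With the number as a replicate block, the quasi-likelihood F-test called 581 genes lower and 114 higher at FDR < 0.05, 0 members in either direction (3 at an unadjusted p under 0.05, lowest adjusted p = 0.0836), a member median of 0.51, Rest at -1.54 (adjusted p = 0.0410) and Rcor1 at an adjusted p of 0.0636. Depth limits the 4 untested members and the 15 tested members with a mean under 10 CPM. DESeq2 gave no adjusted p for Syt1, Syt4, Snap91, Rab3a, Cplx1, Unc13a, Gria2 and Bdnf, so it could not call these members.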
